A study of Oryctolagus cuniculus with 4 samples.

Results

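The insulin-like growth factor (IGF) system of rabbit tendon was described here from the transcripts of its ligands, receptors and binding proteins. Its genes were taken by symbol from the deposited transcript table, whatever their level. Of the 10 symbols sought, 7 had an entry: the ligand IGF1, the receptors IGF1R and IGF2R, and the binding proteins IGFBP2, IGFBP4, IGFBP5 and IGFBP6. They made up 8 of 21589 transcripts and 7 of 20294 genes. IGF2, IGFBP3 and IGFBP7 had no entry under those symbols, so they are not analysed here, and the missing entries say nothing about their expression.

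RNA was sequenced from 4 intact semitendinosus tendons; surgeons use this hamstring tendon to rebuild torn ligaments. They came from 4 female New Zealand White rabbits aged 193 days, and the labels name no treatment or altered genotype. Surface muscle was scraped off before the whole tendon was ground, and polyadenylated RNA was used. All 4 tendons form a single group, called tendons 1 to 4, so the comparisons below are between genes within a tendon and of the spread between tendons.

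IGF1 is a secreted hormone that acts through the receptor tyrosine kinase IGF1R, which signals through adaptor proteins to the PI3K-AKT-TOR and RAS-MAPK pathways. IGF2R has no kinase and carries IGF2 and mannose-6-phosphate-tagged enzymes to the lysosome. The IGFBPs bind the ligands outside the cell, can hold them away from the receptor or keep them in the matrix, and release them when cut by proteases. In tendon, IGF1 is known to stimulate matrix synthesis and cell division, and its local production is known to respond to growth hormone and loading.

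The depth was 19759696 to 30646052 estimated counts per tendon. The labelled tissue was checked against markers. Of 6 tenocyte markers, 5 had an entry (SCX had none), and their summed level was between 13270 and 30690.5 TPM (a transcript level corrected for length, with the same sum in every tendon). Other cells were present too. Summed skeletal muscle markers (9 of 11 with an entry) ranged from 7447 to 29524 TPM, adipocyte markers (4 of 5) from 213 to 716 TPM and macrophage markers (6 of 6) from 60.0 to 178 TPM. Skeletal muscle sums exceeded tenocyte sums in tendons 2 to 4 (29524, 15172 and 19438 against 26324, 13270 and 13338 TPM). The sums are over different genes, so they give no shares of cells. No marker with an entry was at 0 in any tendon. In bulk tissue, fewer cells of a type and less RNA per cell cannot be told apart.

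Transcripts of 2 binding proteins, IGFBP6 and IGFBP5, made up most of the mRNA of the 7 IGF system genes with an entry. IGF2, IGFBP3 and IGFBP7 are left out of every share and order below. The 7 genes took 0.274% ± 0.0279 of all TPM (SD, n = 4). All 7 had a mean of at least 10 TPM, as had 43.0% of all genes, and 3 of 7 had a mean of at least 100 TPM, as had 7.07% of all genes. By mean TPM the order was IGFBP6, IGFBP5, IGFBP4, IGFBP2, IGF1, IGF1R and IGF2R. In this order, 3 steps separated genes whose ranges over the 4 tendons did not overlap: IGFBP5 above IGFBP4, IGFBP4 above IGFBP2, and IGF1 above IGF1R. The other 3 neighbouring pairs, IGFBP6 and IGFBP5, IGFBP2 and IGF1, and IGF1R and IGF2R, had overlapping ranges. IGFBP6 was above IGFBP5, and IGF1R above IGF2R, in 2 of 4 tendons. IGFBP2 was above IGF1 in 3 of 4, and this pair was not tested.

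**Figure D1:**
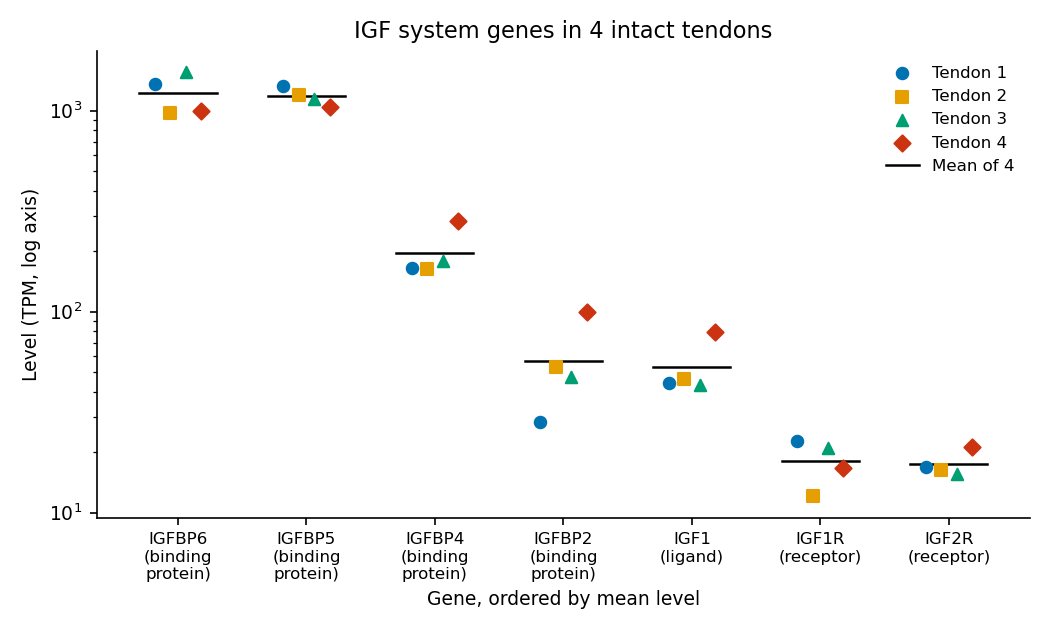
Level in TPM (log axis) of the 7 IGF system genes in tendons 1 to 4 (points), ordered by mean level, with the mean of 4 as a bar. IGFBP6 and IGFBP5 lie between 980 and 1559 TPM in all tendons, and IGF1R and IGF2R lie between 12.1 and 22.7 TPM.

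Among the 4 binding proteins with an entry, IGFBP6, which prefers IGF2 to IGF1 as its ligand, had the highest mean. Its levels were 1351, 979.8, 1559 and 991 TPM in tendons 1 to 4, a mean of 1220.3 ± 284 TPM (SD, n = 4). Tendons 1 and 3 were high and tendons 2 and 4 low. IGFBP6 stood at rank 63 of 13225 genes with a symbol (ENSOCUG00000001412.3, OryCun2.0 chromosome 4, 36971585 to 36976170).

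IGFBP5, which binds IGFs as well as matrix components and is abundant in connective tissue and muscle, had 1334, 1204, 1140.0 and 1039.7 TPM in tendons 1 to 4. The mean was 1179 ± 123 TPM (SD, n = 4), and the highest tendon was 1.28 times the lowest. Its rank by mean TPM was 66. Tendon 4 was lowest both in TPM and in TMM-normalised CPM (counts scaled for depth by the trimmed mean of M-values, with no length correction), whereas the highest was tendon 1 in TPM and tendon 2 in CPM. IGFBP5 lies on OryCun2.0 chromosome 7 (ENSOCUG00000025513.1, 158093549 to 158109173, minus strand).

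The IGFBP5 to IGFBP6 ratio was 0.987, 1.23, 0.731 and 1.05 in tendons 1 to 4. On the log2 scale it averaged -0.03 ± 0.31 (SD, n = 4; exact two-sided sign-flip permutation test, p = 0.875, adjusted p = 1). Neither gene was the higher one in all tendons, and the direction of the mean depended on the length correction. With 200 bases taken from each length to allow for fragment size, the mean log2 ratio was 0.19, and without any length correction it was -1.12. The annotated IGFBP6 transcript has 1855 bases and that of IGFBP5 872 bases.

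IGFBP4, an inhibitory binding protein cut by the pappalysin protease PAPPA, had 165, 163, 178 and 281 TPM in tendons 1 to 4, a mean of 197 ± 56.7 TPM (SD, n = 4). Tendons 1 to 3 lay within 1.09-fold of each other, and tendon 4 stood 1.67-fold above their mean. The level of IGFBP5 was 8.06, 7.40, 6.41 and 3.69 times that of IGFBP4 in tendons 1 to 4. IGFBP4 (ENSOCUG00000002828.2) lies on chromosome 19, 41584616 to 41594308.

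IGFBP2, which also carries an integrin-binding motif and is known as a product of white fat-cell precursors among other cells, had 28.2, 52.9, 47.3 and 99.7 TPM in tendons 1 to 4. The mean was 57.0 ± 30.3 TPM (SD, n = 4). Tendon 4 was high, tendon 1 low, and the other 2 lay between. IGFBP2 (ENSOCUG00000008561.3, chromosome 7, 158054321 to 158081892, plus strand) is the neighbour of IGFBP5, with 11656 bases between the genes, and they are transcribed towards each other. The neighbours differed in level and in pattern. IGFBP5 was 47.3, 22.8, 24.1 and 10.4 times IGFBP2 in tendons 1 to 4, IGFBP2 was lowest in tendon 1 and highest in tendon 4, and IGFBP5 in TPM was highest in tendon 1 and lowest in tendon 4.

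IGFBP5 and IGFBP6 together held 93.3%, 91.0%, 92.3% and 84.2% of the summed TPM of the 4 binding proteins in tendons 1 to 4. IGFBP6 held 45.5% ± 5.89 and IGFBP5 44.7% ± 4.76 (SD, n = 4). IGFBP4 held 5.75%, 6.78%, 6.09% and 11.7%, and IGFBP2 0.980%, 2.20%, 1.62% and 4.13%. The share of IGFBP4 and IGFBP2 was thus largest in tendon 4, while the summed TPM, 2879, 2399, 2924 and 2412 in tendons 1 to 4, was lower in tendons 2 and 4 than in tendons 1 and 3.

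**Figure D2:**
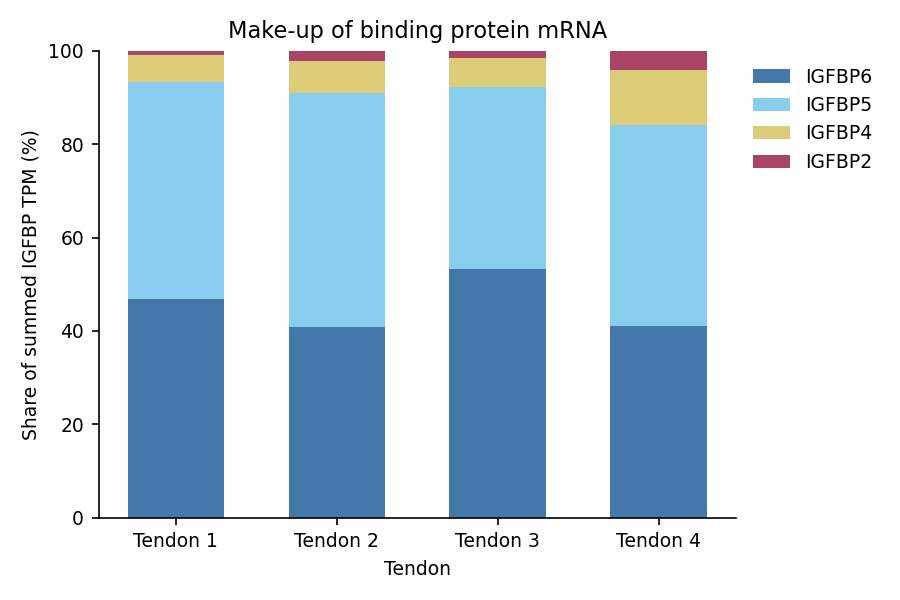
Share of the summed TPM of 4 binding proteins (percent, stacked bars from 0) taken by IGFBP6, IGFBP5, IGFBP4 and IGFBP2 in each tendon. IGFBP4 and IGFBP2 together take between 6.73% (tendon 1) and 15.8% (tendon 4).

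The ligand IGF1 was expressed in every tendon, at 44.0, 46.5, 43.1 and 79.7 TPM in tendons 1 to 4, a mean of 53.3 ± 17.6 TPM (SD, n = 4). Tendons 1 to 3 lay within 1.08-fold of each other and tendon 4 was 1.79-fold above their mean. These levels rested on 244, 441, 366 and 743 counts. The 95% Poisson interval in tendon 4, 74.0 to 85.6 TPM, did not overlap that of tendon 2, 42.2 to 51.0 TPM; these intervals cover counting error only. The annotated IGF1 transcript has 555 bases, the shortest of the members, and reads from any part of the mRNA outside that model would not be counted. IGF1 (ENSOCUG00000014689.3) lies on chromosome 4, 81679741 to 81750192.

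Transcripts of both IGFBP5 and IGFBP6 exceeded those of IGF1 in all 4 tendons. IGFBP5 was 30.3, 25.9, 26.5 and 13.0 times IGF1 in tendons 1 to 4, with a mean log2 ratio of 4.51 ± 0.55 (SD, n = 4). IGFBP6 was 30.7, 21.1, 36.2 and 12.4 times IGF1, with a mean log2 ratio of 4.54 ± 0.68. In both ratios tendon 4 had the lowest value. These 2 ratios and those of IGFBP5 to IGFBP4 (mean log2 2.62 ± 0.51) and to IGFBP2 (4.51 ± 0.89) were above 1 in 4 of 4 tendons. Each had an exact two-sided sign-flip permutation p of 0.13 (adjusted p = 0.219 over the 7 ratios tested), which is the smallest that 4 tendons allow, so none could reach 0.05.

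The receptors had the lowest levels of the 7 genes per length. In CPM, with no length correction, IGF1 was lowest at 16.1, below IGFBP2 at 41.3, IGF1R at 48.4 and IGF2R at 70.2. IGF1R had 22.7, 12.1, 21.0 and 16.8 TPM in tendons 1 to 4, a mean of 18.1 ± 4.76 TPM (SD, n = 4), with tendon 2 lowest and tendons 1 and 3 highest. Its 2 transcripts, of 4930 and 4945 bases, were summed; the first took 66.3% to 76.1% of the estimate, and their split rests on the authors' quantification of nearly equal models. IGF1R (ENSOCUG00000014795.3) lies on the unplaced scaffold GL018753, 1410896 to 1660832.

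IGF2R had 16.9, 16.4, 15.7 and 21.2 TPM, a mean of 17.5 ± 2.51 TPM (SD, n = 4), and was highest in tendon 4 (ENSOCUG00000008785.3, chromosome 12, 149773364 to 149860242). IGF1R was 1.35, 0.736, 1.34 and 0.790 times IGF2R in tendons 1 to 4 (exact permutation test, p = 1, adjusted p = 1), so the receptors changed places from tendon to tendon. The insulin receptor gene INSR, whose product can pair with IGF1R in hybrid receptors, varied least of the receptor genes measured above 10 TPM, at 22.3, 22.0, 23.6 and 23.8 TPM. IGF1R was 1.02, 0.549, 0.890 and 0.706 times INSR (mean log2 ratio -0.38 ± 0.39; exact permutation test, p = 0.25, adjusted p = 0.35), below 1 in 3 of 4 tendons.

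Tendon 4 was the highest for 4 of 7 genes (IGF1, IGFBP2, IGFBP4 and IGF2R), as it was for 27.6% of all genes averaging 10 TPM or more. The same count, 4 of 7, was found in CPM. At least 1.5-fold above the mean of the other 3, a size chosen after the values were seen, tendon 4 had 3 of 7 (IGFBP2 2.33-fold, IGF1 1.79-fold, IGFBP4 1.67-fold), against 4.75% of all such genes. Tendons 1, 2 and 3 had 0 of 7, against 5.40%, 2.27% and 1.57%. IGFBP5 and IGFBP6 were 0.848 and 0.765 times the mean of the others in tendon 4. The 7 genes were therefore not higher as a whole in tendon 4, and their summed level there was 2530 TPM against 2474 to 3004 TPM in the others.

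Markers of some other cell types, but not of all, were also highest in tendon 4. Summed muscle stem cell markers were 3.94, 8.57, 6.20 and 21.6 TPM in tendons 1 to 4, with 3 of 3 highest in tendon 4 and 3 of 3 lowest in tendon 1. Summed adipocyte markers were 213, 304, 446 and 716 TPM, with 4 of 4 highest in tendon 4, and 5 of 6 macrophage markers were highest there, with sums of 79.7, 60.0, 149 and 178 TPM. Of 3 fibroblast markers other than tenocyte genes, 3 were highest in tendon 4, with sums of 1227, 1046, 1781 and 2309 TPM. Fewer of the endothelial (2 of 5), pericyte and smooth muscle (2 of 5), Schwann (1 of 5) and cartilage markers (0 of 4) were highest there. The endothelial sum was highest in tendon 4 (262.6 TPM, against 261.7 in tendon 3). The pericyte and smooth muscle sum was highest in tendon 3, and the Schwann and cartilage sums were highest in tendon 1. The order depended on the measure. By the mean of log2(TPM + 1), centred per gene, tendon 4 was highest for pericyte and smooth muscle (0.25, against 0.19 in tendon 3) and Schwann markers (0.21, against 0.10 in tendon 1). It was not highest for endothelial (0.27, against 0.29 in tendon 3) or cartilage markers (-0.29, against 0.46 in tendon 1).

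Skeletal muscle markers summed to 7447, 29524, 15172 and 19438 TPM in tendons 1 to 4, a sum carried by abundant genes such as ACTA1 and highest in tendon 2. The mean over the 9 genes of log2(TPM + 1), centred per gene, was instead highest in tendon 4, at -1.49, 0.26, -0.63 and 1.86. Of the 9, 4 (MYH2, MYH1, TNNC2 and DES) were highest there, while ACTA1, CKM, MB, TNNC1 and TNNI1 were highest in tendon 2. All 9 were lowest in tendon 1, as were 5 of 5 endothelial, 3 of 3 muscle stem cell and 3 of 4 adipocyte markers. No tenocyte (0 of 5) or cartilage (0 of 4) marker was lowest there. IGFBP2 was lowest in tendon 1 too, and the share of all genes lowest there was not computed. The fast myosin gene MYH2 had 240 TPM in tendon 4 and at most 1.01 TPM elsewhere. MYH1 had 99.4 TPM there and at most 0.893 TPM elsewhere, and TNNC2 926 and at most 20.4 TPM. These genes carried much of the tendon 4 mean, which is therefore no measure of muscle content. Tenocyte markers summed to 30690.5, 26324, 13270 and 13338 TPM, higher in tendons 1 and 2, although TNMD was highest in tendon 4, at 187 TPM. The part of these cells in the levels of IGF1, IGFBP2 and IGFBP4 was not tested.

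**Figure D3:**
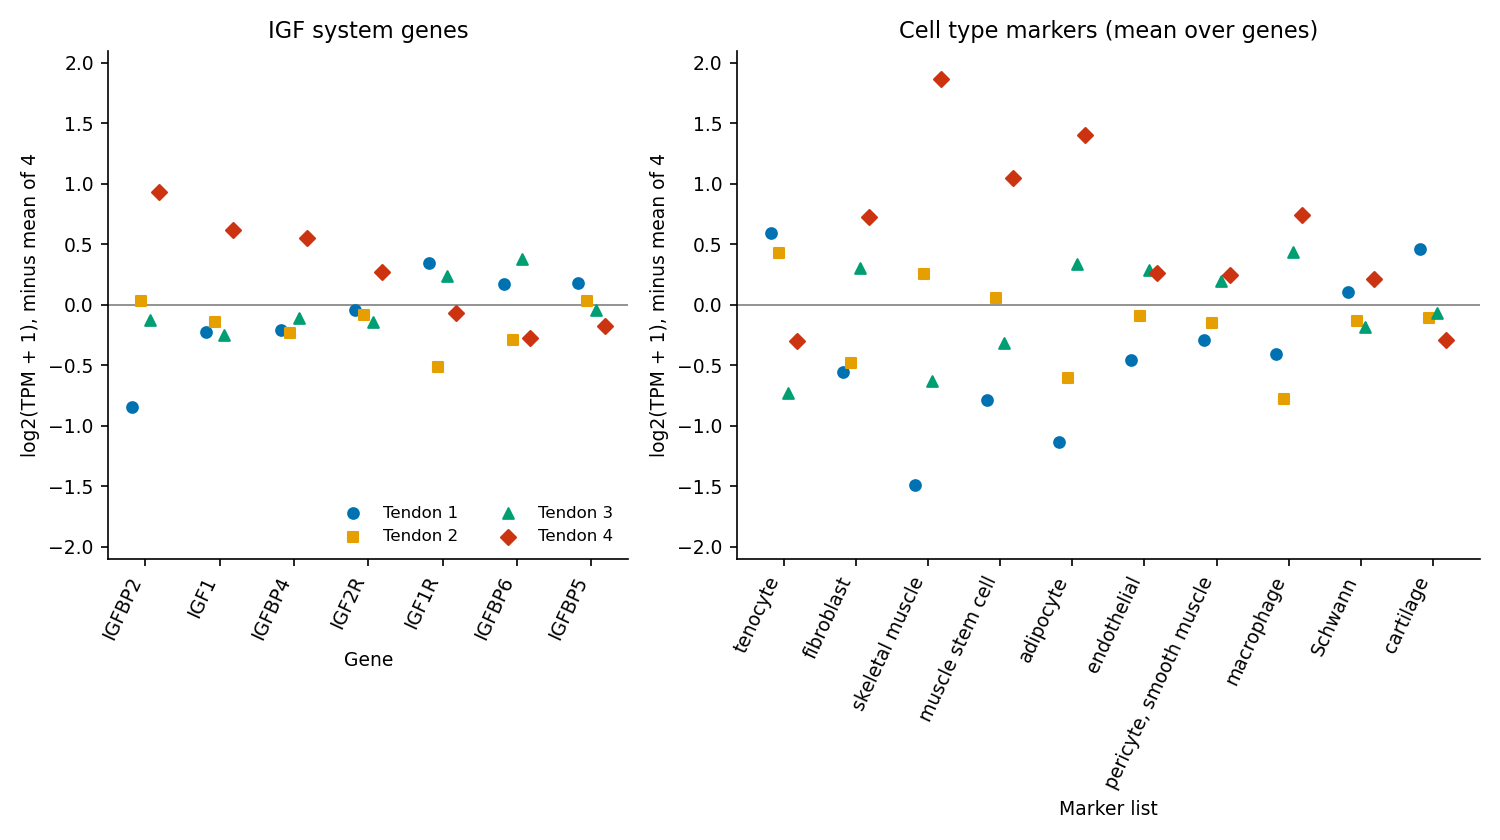
Deviation of log2(TPM + 1) from the mean of 4 tendons, for the 7 IGF system genes (left) and for the mean over the genes of each marker list (right), in tendons 1 to 4. IGFBP2, IGF1, IGFBP4 and IGF2R have tendon 4 at the top, at 0.94, 0.62, 0.55 and 0.27, and IGFBP5 has it at the bottom, at -0.18.

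The spread between tendons differed from member to member. On log2(CPM + 1), IGFBP2 had an SD of 0.73, larger than that of 96.7% of the 8784 genes averaging 10 CPM or more. IGF1 (0.38), IGFBP4 (0.34), IGF1R (0.33) and IGFBP6 (0.31) exceeded between 80.1% and 86.7% of genes. IGFBP5 (0.19) and IGF2R (0.17) exceeded 53.2% and 48.6%. The median SD of the 7 was 0.33, and that of all 8784 genes 0.18. Without tendon 4, the SD was 0.15 for IGF1 and 0.10 for IGFBP4, and it stayed at 0.55 for IGFBP2. IGFBP2 was the 1 member of 7 whose highest tendon was at least 2-fold above its lowest (3.53-fold), against 10.8% of genes averaging 10 TPM or more. Without tendon 4 its range was 1.87-fold and the count 0 of 7.

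**Figure D4:**
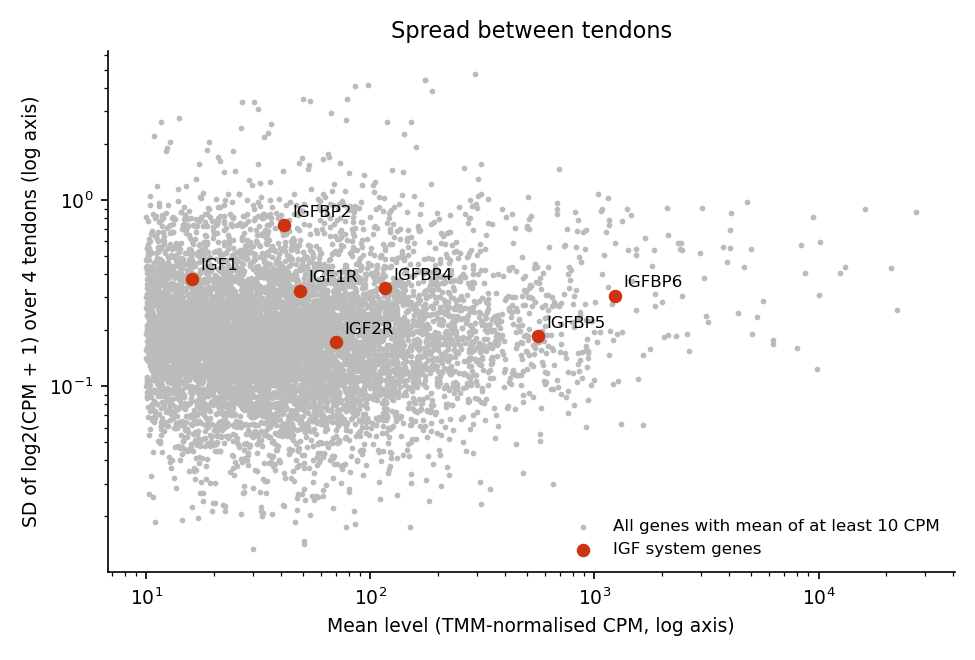
SD of log2(CPM + 1) over 4 tendons against mean CPM (both log axes) for genes averaging 10 CPM or more (grey) and the 7 IGF system genes (red). IGFBP2 lies high in the cloud at an SD of 0.73, and IGFBP5 and IGF2R lie near its middle, at 0.19 and 0.17.

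Genes with the most similar course over the 4 tendons were found by the root mean square difference of log2(TPM + 1), centred per gene, over 4 tendons and 7008 genes with a symbol and a mean of at least 10 TPM. For IGF1 these were MMP14, a membrane collagenase (difference 0.03; 49.8, 53.2, 51.0 and 89.6 TPM in tendons 1 to 4), FBXO10 (0.06) and the adhesion molecule gene NCAM1 (0.06). Each was likewise highest in tendon 4. For IGFBP6 they were the lymphatic receptor gene FLT4 (0.03; 23.2, 15.7, 26.2 and 16.2 TPM), EOGT (0.05) and MCUB (0.05), all higher in tendons 1 and 3. For IGFBP5 they were NOB1 (0.01), RAB5B (0.02) and GPR176 (0.02), but 647 genes lay within 0.1 of IGFBP5, against 17 for IGF1 and 36 for IGFBP6, so a course this flat is shared by many genes. The lists depended on the filter. With a mean of at least 1 TPM, IGF1 kept 1 of its 3 genes, MMP14, followed by APOM and FAAH. IGFBP6 kept 2 of 3, with NEBL now nearest (0.007), and IGFBP5 kept 3 of 3. With 4 points, likeness of this kind is a description only.

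The wider pathway was read from 67 listed symbols, of which 52 had an entry. A mean of at least 1 TPM was reached by 43 of the 52, against 63.0% of all genes, a mean of at least 10 TPM by 34 (43.0% of all genes) and one of at least 100 TPM by 9 (7.07% of all genes). Between tendons the 34 had a median SD of log2(CPM + 1) of 0.17. This was close to the 0.18 of the 8784 genes averaging 10 CPM or more, a different filter from the 10 TPM used for the 34. In TPM, 1 of 34, FOXO1, had a highest tendon at least 2-fold above its lowest, against 10.8% of all genes averaging 10 TPM or more; in CPM, EIF4EBP1 did too (2.13-fold).

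Among proteases that can cut binding proteins and their inhibitors, 3 of 8 had a mean of at least 10 TPM. HTRA1, a secreted serine protease, had 621, 623, 451 and 534 TPM in tendons 1 to 4, ADAM9 had a mean of 111 ± 15.3 TPM and ADAM12 18.7 ± 6.46 TPM (SD, n = 4). ADAM12 was highest in tendon 4, at 28.0 TPM. The pappalysins PAPPA and PAPPA2 were low at 3.33 ± 0.436 and 0.976 ± 0.155 TPM. They were named after their values were seen because both cleave IGFBP5, and PAPPA also IGFBP4.

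Related receptors had 3 of 4 genes at 10 TPM or more. LRP1, an endocytic receptor reported to bind IGFBP3, had 602, 331, 419 and 324 TPM, and TMEM219, another IGFBP3 receptor gene, 58.0 ± 6.40 TPM. Of other genes with the IGFBP fold, 0 of 4 reached 10 TPM. IGFALS, sought for the ternary serum complex, had no entry, so nothing is known here about its expression. KAZALD1 had 3.63 ± 1.17 TPM, ESM1 3.23 ± 0.987 TPM, and IGFBPL1 at most 2 counts in a tendon. IGFBP1, the liver-type binding protein, had 1 count in tendon 2 and 0 in the others.

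On the growth hormone axis, which drives IGF1 production in liver and other tissues, 4 of 7 genes had a mean of at least 10 TPM. The receptor gene GHR had 96.5, 89.6, 89.4 and 85.6 TPM, so it did not share the high value of IGF1 in tendon 4. Its signal transducers were lower, JAK2 at 26.1, 16.8, 25.8 and 26.3 TPM and STAT5B at 21.5 ± 1.08 TPM (SD, n = 4).

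Of the adaptors, 5 of 7 passed 10 TPM, led by SHC1 at 84.2 ± 8.45, GRB2 at 44.9 ± 3.09 and GRB10, an inhibitory adaptor, at 37.3 ± 3.96 TPM. GRB14, another inhibitory adaptor, had 1.90, 9.14, 5.85 and 12.3 TPM in tendons 1 to 4; it was named after its values were seen, for the widest range of any adaptor with counts in all tendons.

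All 6 PI3K and AKT genes with an entry passed 10 TPM. PIK3R1, the regulatory subunit of PI3K, had 166, 130.4, 119 and 95.8 TPM in tendons 1 to 4, and AKT2 had 107 ± 7.94 TPM (SD, n = 4). The TOR branch also had 6 of 6, with the activating GTPase gene RHEB at 197 ± 6.00, the translation repressor gene EIF4EBP1 at 56.4 ± 13.7 and RPS6KB1, the S6 kinase gene, at 38.0 ± 4.72 TPM.

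Of the FOXO factors, which AKT keeps out of the nucleus, FOXO1 had 84.1, 46.5, 51.3 and 37.0 TPM in tendons 1 to 4 and FOXO3 63.5, 35.1, 41.6 and 36.6 TPM. Both were highest in tendon 1, as were 42.9% of genes averaging 10 TPM or more. The range of FOXO1 was 2.27-fold, and 1.39-fold without tendon 1. In the RAS and MAPK branch 5 of 5 passed 10 TPM, with MAPK3 at 141 ± 12.3 and MAP2K1 at 110.1 ± 10.5 TPM (SD, n = 4).

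The RNA-binding proteins that attach to IGF2 mRNA, known from embryonic tissue, had 0 of 3 at 1 TPM. IGF2BP3 had 0.957 ± 0.229 and IGF2BP2 0.314 ± 0.0386 TPM (SD, n = 4), and IGF2BP1 had 0 counts in all tendons, which allows up to 0.0504 to 0.0862 TPM (3 counts, per tendon).

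**Figure D5:**
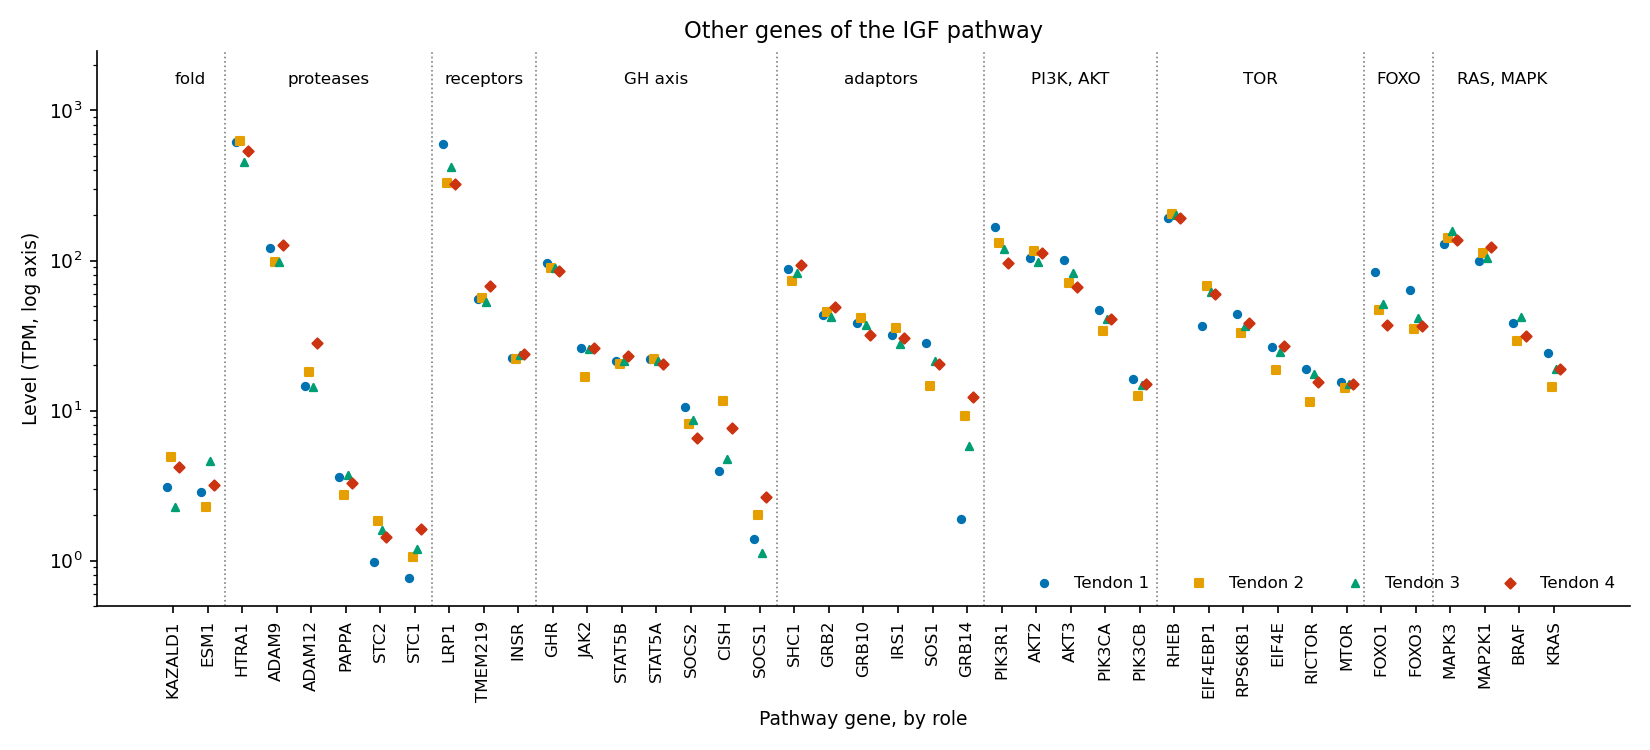
Level in TPM (log axis) in tendons 1 to 4 of pathway genes averaging 1 TPM or more (2 not shown), grouped by role between dotted lines and ordered by mean within a role. HTRA1 and LRP1 lie highest, FOXO1 and FOXO3 have tendon 1 at the top, and GRB14 runs from 1.90 TPM in tendon 1 to 12.3 TPM in tendon 4.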

How the data were processed

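The authors deposited 1 column of estimated counts for each tendon, with 1 row for each transcript and no scaling; per the file headers each transcript had a symbol where known, an Ensembl identifier, coordinates and a length. Per the submitters' processing notes, kallisto 0.42.4, bcl2fastq, FastQC and the build OryCun2.0 were used; their roles, filters and strand use are not given in the sources used here. TPM were computed here from the deposited counts and annotated lengths (another value deposited beside the counts) and summed per gene. Each animal gave 1 sample, so SDs measure the spread between 4 tendons. The p-values test the mean log2 ratio of a pair of genes within a tendon, with the 4 tendons as units.

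Counts rounded to whole numbers were scaled by TMM in edgeR 4.0.16 (R 4.3.3). No contrast between groups exists. Ratios of 2 genes within a tendon were tested with the exact two-sided sign-flip permutation test, with Benjamini-Hochberg adjustment; 7 of 12 planned ratios had entries for both genes. A tagwise biological coefficient of variation was estimated in edgeR, over genes that reached 1 CPM in 2 or more tendons. The estimate and the search for similar genes were tested on simulated data. Alternatives were CPM, lengths less 200 bases (at least 100), DESeq2 1.42.0 size factors, library totals, pseudocounts of 0.5 and 1, other filters, and each tendon left out. Python 3.11.15 was used for the rest.

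Named genes were the members, the 3 highest of each pathway role by mean TPM, any pathway gene with a 4-fold range at a mean of at least 10 TPM (none), and the 3 genes most like IGF1, IGFBP5 and IGFBP6. Members and lists were chosen with earlier results of these data known. Levels of 2 pathway genes are not reported here, although the counts include them. No protein or promoter sequence was used here.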

Additional observations from a re-analysis of the deposited data

Results flagged for a closer look

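Dixon's ratio, which looks for 1 tendon far from the other 3, passed its 95% critical value for 3 of 44 values, where chance gives about 2.2. IGF1 stood apart in tendon 4, where it was highest (ratio 0.907), and so did IGFBP4 (0.872). On log2(CPM + 1) their ratios were 0.677 and 0.770 and did not pass. JAK2 stood apart in tendon 2, where it was lowest (0.944), and passed on log2(CPM + 1) too (0.939).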

How the results depend on the processing

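No paired analysis was possible because all 4 tendons form 1 group. The IGFBP5 to IGFBP6 mean log2 ratio turned to 0.19 with lengths less 200 bases, and ran from -0.13 to 0.12 with each tendon left out, turning positive without tendon 3. The IGF1R to IGF2R ratio turned to -0.56 in CPM, and ran from -0.12 to 0.17, turning negative without tendon 1 or tendon 3. The other 5 ratios kept their direction in every alternative run. In CPM the means were 16.1 for IGF1 and 562 for IGFBP5, and the members' share of the total was 0.209%. Lengths less 200 bases put IGF1 (61.9 TPM) above IGFBP2 (49.8 TPM) in the mean. Tendons highest or lowest for a gene changed between TPM and CPM for IGFBP5 (highest) and for IGF1, IGFBP4 and IGFBP6 (lowest). In CPM the mean log2 ratio of IGFBP6 to IGF1 was 6.28 and that of IGFBP5 to IGFBP6 -1.12. Of the alternative ratios, 44 kept their direction, some at other sizes, and 5 reversed. Alternatives for the number of members with a 2-fold range or highest in tendon 4 were chosen after seeing the data. IGF1, with 244 to 743 counts, was the member with the least depth.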
